A study of Mus musculus with 12 samples.

Results

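The 10 core circadian clock genes Arntl (also called Bmal1), Clock, Per1, Per2, Per3, Cry1, Cry2, Nr1d1, Nr1d2 and Dbp were followed in C2C12 cells, an immortalized mouse myoblast line that fuses into muscle-like myotubes when serum is withdrawn. They were taken by gene symbol, as the core genes of the clock, and are 10 of the 16288 genes listed in at least 1 library. RNA was sequenced in 12 libraries, 2 biological replicates (A and B) for each of 6 groups. Cells received DMSO, the vehicle, or 50 uM PFI-3, a small molecule that binds the bromodomains of the SWI/SNF chromatin-remodelling ATPases BRM and BRG1 and of polybromo-1. The title of the study asks what these bromodomains do in muscle differentiation.

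The GM groups are proliferating cells in medium with 10% fetal bovine serum, harvested after 12 h in DMSO (group GM DMSO) or in PFI-3 (group GM PFI-3). The DM groups had the same 12 h of pretreatment, were then switched at high confluence to medium with 2% horse serum and 2 ug/ml insulin, and were harvested after 24 h (DM 24h DMSO and DM 24h PFI-3) or 48 h (DM 48h DMSO and DM 48h PFI-3), with compound or vehicle renewed every 24 h. GM and DM cells differ in serum, insulin, confluence and time in culture as well as in stage, and these cannot be told apart. Exposure to compound or vehicle also lengthened with stage, from 12 h in GM by a further 24 or 48 h in DM. A PFI-3 change that differs between stages therefore cannot be told apart from one that differs with length of exposure. The labels give neither a step that sets the clocks of the cells to a common phase nor the time of day of harvest, so clock phase and stage cannot be told apart either. All cells are of 1 line, and in bulk RNA a lower level in every cell and fewer cells that express the gene cannot be told apart.

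The mammalian clock is a loop of transcription and repression. The proteins of Arntl and Clock pair and switch on genes that carry an E-box, among them the Per and Cry genes, whose proteins return to the nucleus and block the pair. A second loop runs through the nuclear receptors REV-ERB alpha and beta (Nr1d1 and Nr1d2), which the pair also switches on and which repress Arntl by competing with ROR receptors for the same DNA element. Dbp is a direct target of the pair, and its protein carries the rhythm on to genes with a D-box. In skeletal muscle the clock is known to run in the fibres themselves and to act on metabolism, and Arntl and Clock are known to act on the myogenic factor Myod1.

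The promoter letters of these loops can be read in the mouse genome. RefSeq promoter windows on GRCm38 (the build also called mm10), each of 300 bases from 250 before to 50 after a transcript start, matched 9 of the 10 genes with 13 windows. Per2 had no window and was not searched. 3 motifs were searched on both strands, with no overlap between their letters: the E-box CACGTG, the D-box TTATGTAA or TTACGTAA, and AGGTCA, the core of the element that ROR and REV-ERB receptors bind. Of 32851 windows of the same length, 7.15% hold the E-box, 1.06% a D-box and 16.3% AGGTCA. The stretches below, 5′ to 3′ on the strand of the gene with the motif in capitals, show where each kind of letter string lies beside the genes whose levels are given below.
Per1, E-box, chr11:69098771-69098800, plus strand: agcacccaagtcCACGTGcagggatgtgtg
Cry1, E-box, chr10:85185097-85185126, minus strand: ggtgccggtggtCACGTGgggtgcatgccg
Per3, both D-boxes, chr4:151044808-151044878, minus strand: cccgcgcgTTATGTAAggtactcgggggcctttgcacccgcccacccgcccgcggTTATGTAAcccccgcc
Arntl, AGGTCA, chr7:113207530-113207559, plus strand: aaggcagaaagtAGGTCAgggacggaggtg
Nr1d2, AGGTCA, chr14:18239166-18239195, minus strand: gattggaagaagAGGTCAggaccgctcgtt

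The E-box of Per1 starts 166 bases before the transcript start of its window and that of Cry1 60 bases before. The D-boxes of Per3 start 205 and 158 bases before its start, 47 bases apart. AGGTCA starts 77 bases before the start of Nr1d2 and at base 32 of the transcript in Arntl. In the GENCODE M21 annotation the Arntl stretch lies in an Arntl exon, the Per1 stretch inside the Per1 gene but outside its exons, the Per3 stretch inside the gene model of Camta1 but outside exons, and the Cry1 and Nr1d2 stretches outside all genes. TGACCT, which is AGGTCA on the other strand, also starts 119 bases before the start of 1 of the 3 Clock windows and 137 bases before that of Per1. None of these letter strings was in the windows of Dbp, Nr1d1 or Cry2, which says only that they are not within these 300 bases. A match is a description of letters, and no binding was measured here.

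All 10 clock genes were listed in all 12 libraries and passed the low-count filter that left 12545 genes for testing. Total counts per library were 12576374 to 13658352, and counts of the clock genes ran from 65 (Dbp) to 2059 (Clock). Replicates of the GM groups lay further apart than those of the DM groups: over 10656 genes, log2(B/A) had an SD of 0.333 and 0.301 in GM against 0.138 to 0.151 in DM. The muscle identity of the cells was checked with 6 lineage markers: Myod1 (1548 to 5688 counts), Myf5 (488 to 927) and Des (3744 to 26132) were present in every library, and Myog, Myh3 and Ckm ranged from 2, 6 and 0 counts to 22557, 62316 and 11062. Markers of other cell types were at or near 0 (Adipoq at most 1 count, Ptprc 2, Pecam1 2, Rbfox3 1; Plin1, Cidec, Lep, Adgre1 and Snap25 not listed), except Cd68 (11 to 127 counts) and Stmn2 (131 to 1395).

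Levels of different genes were compared as FPKM (fragment counts scaled by transcript length and library size), given as mean ± SD with n = 2. In GM DMSO cells Nr1d1 stood first at 25.3 ± 7.80 FPKM, ahead of Nr1d2 at 14.1 ± 0.742 and Clock at 13.7 ± 1.97, whose library values overlapped. Per1 (7.38 ± 2.39) and Cry1 (6.52 ± 0.573) followed with overlapping values, then Arntl (5.78 ± 0.445), whose values also overlapped those of Per1. Dbp (3.43 ± 0.636), Cry2 (2.30 ± 0.191), Per2 (1.65 ± 0.0849) and Per3 (1.36 ± 0.177) came last. In DM 48h in DMSO Nr1d1 was still first at 23.1 ± 1.20, but Dbp, which ranked 7th in GM, ranked 2nd at 14.6 ± 1.82, its values overlapping those of Nr1d2 at 13.6 ± 0.120. Per3 (5.88 ± 0.205) and Cry2 (6.01 ± 0.148) overlapped there, and Per2 was last at 4.73 ± 0.0566. With PFI-3 in DM 48h Arntl was last at 3.32 FPKM in both libraries, below Per2 at 4.62 ± 0.106. These are levels, and the rest of the results are differences of 1 gene between groups, on CPM (read counts scaled to the TMM-adjusted library size) and its log2.

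**Figure D1:**
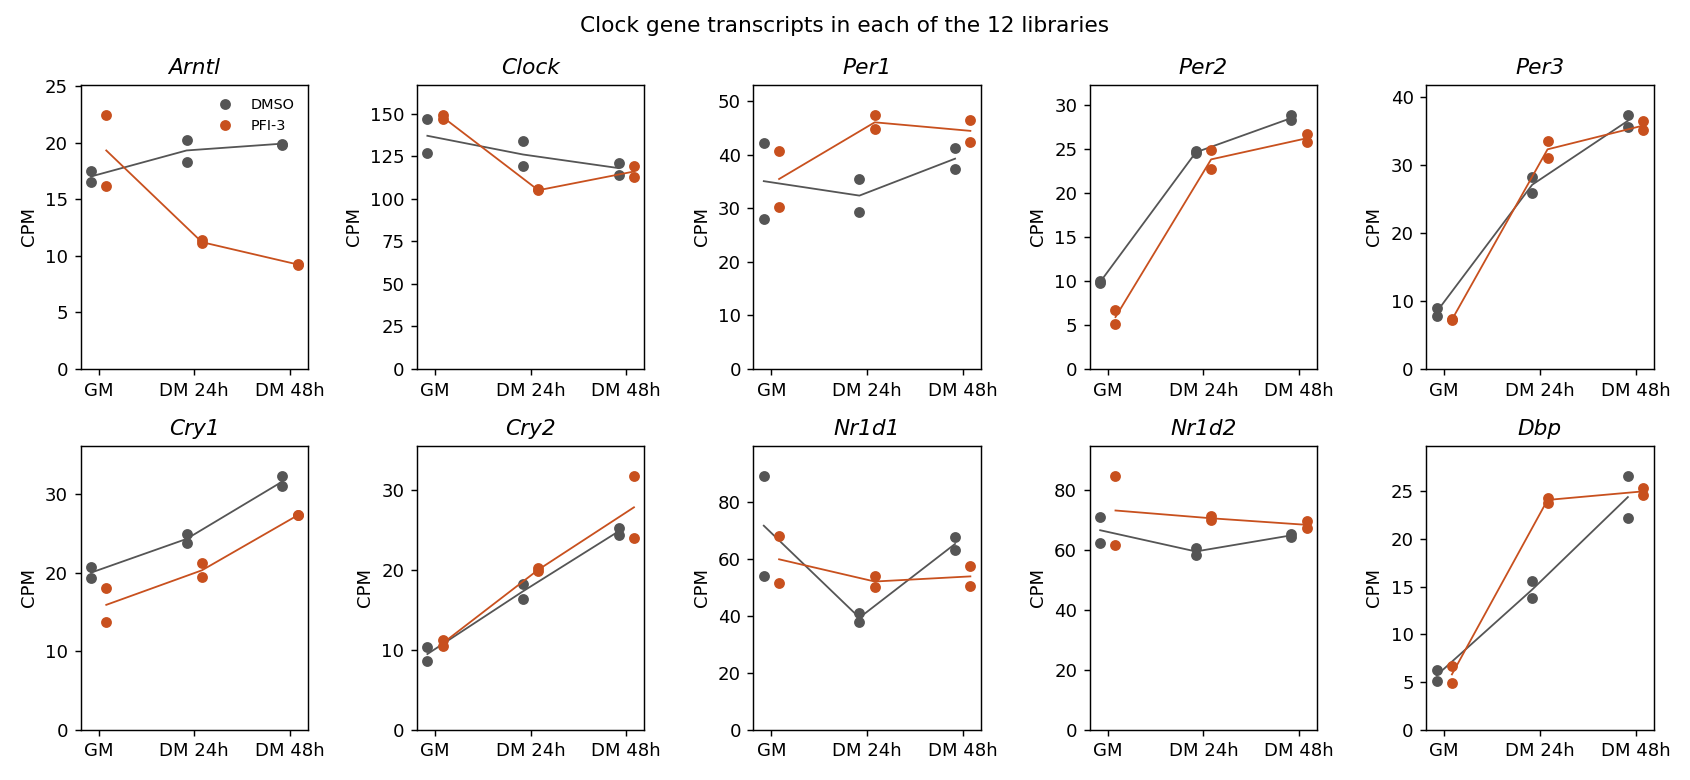
Level of each clock gene in CPM (y axis, linear, from 0) by stage (x axis) in DMSO (grey) and PFI-3 (orange); each dot is 1 library and lines join the means of 2. Arntl with PFI-3 falls to 9.21 CPM in DM 48h while DMSO stays between 16.5 and 20.2, and Dbp with PFI-3 is already at 23.8 to 24.3 CPM in DM 24h, where DMSO is at 13.8 and 15.6.

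The first question was how the clock genes moved as vehicle-treated cells differentiated. From GM to DM 24h, 4 of the 10 genes rose and 1 fell, against 30.6% and 30% of all genes tested (60.6% in either direction), so the share of clock genes called was not above the background. Dbp, Per3, Per2 and Cry2 rose and Nr1d1 fell. From GM to DM 48h, 5 rose (37.2% of all genes did), with Cry1 added, and Clock fell (35.9% of all genes fell and 73.1% changed). From DM 24h to DM 48h, 5 rose, Cry1, Cry2, Dbp, Nr1d1 and Per3, where 24.2% of all genes rose, 23.9% fell and 48.1% changed. The median log2 change of the 10 genes was 0.23, 0.44 and 0.33 in the 3 comparisons, and that of all genes 0.02, 0.03 and 0.00. The first and second comparisons share the GM DMSO libraries, and the third shares libraries with both.

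**Figure D2:**
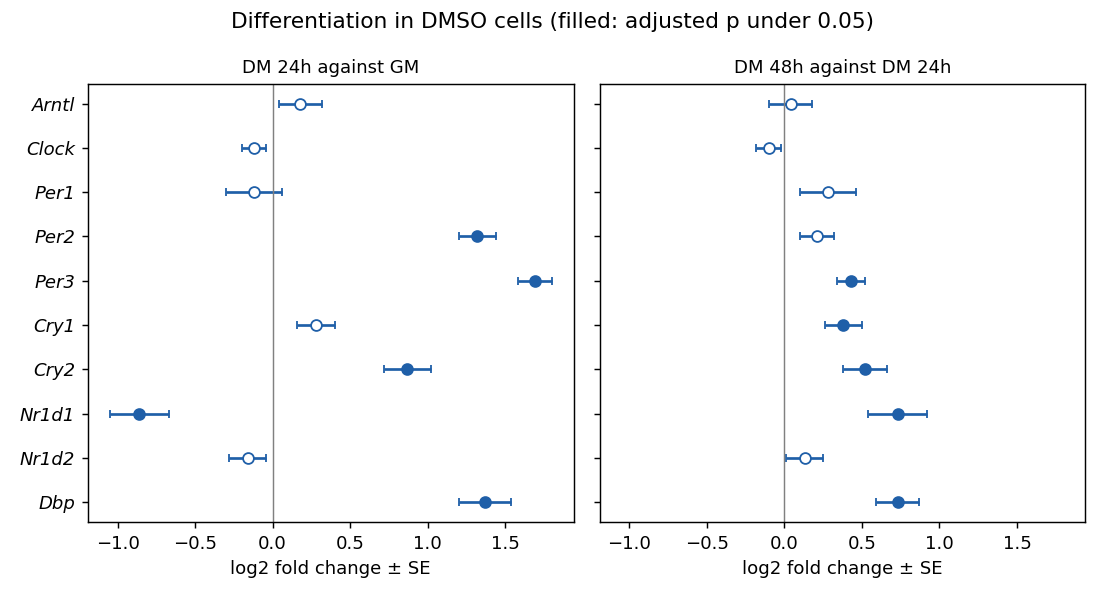
Log2 fold change with its standard error (x axis, shared scale) of each clock gene in DMSO cells, DM 24h against GM on the left and DM 48h against DM 24h on the right; filled dots have an edgeR adjusted p under 0.05. Per3, Dbp, Per2 and Cry2 lie at 0.87 to 1.69 on the left, and Nr1d1 changes side, from -0.86 to 0.73.

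Among the activators, Arntl (chr7:113178471-113314126) showed no called change through differentiation in DMSO. Its libraries A and B read 16.5 and 17.5 CPM in GM, 20.2 and 18.3 in DM 24h and 19.9 and 19.8 in DM 48h. The log2 changes from GM of 0.18 ± 0.14 (SE) and 0.23 ± 0.14 did not pass the test (adjusted p = 0.276 and 0.164, edgeR). Clock (chr5:76209868-76305603), the partner of Arntl and the gene with the highest counts of the 10, read 127 and 147 CPM in GM, 134 and 119 in DM 24h and 114 and 121 in DM 48h. Its fall to DM 48h was small, a log2 change of -0.22 ± 0.08 (adjusted p = 0.0304). That call was lost without library B of GM DMSO (-0.11, adjusted p = 0.239), without library A of DM 48h DMSO (0.162), under DESeq2 (0.0582), in both limma fits and when the 4 libraries were fitted alone (0.0901).

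The Period genes encode the rhythmic repressors, and they did not move as 1 group. Per3 (chr4:150997018-151044707), which has D-boxes in its promoter window, read 7.84 and 8.93 CPM in GM, 25.9 and 28.2 in DM 24h and 37.3 and 35.6 in DM 48h. It was 3.22-fold higher in DM 24h than in GM (log2 1.69 ± 0.11, adjusted p = 6.99e-08) and 4.34-fold higher in DM 48h (2.12 ± 0.10, adjusted p = 2.75e-09). Per2 (chr1:91415977-91459351) rose from 9.80 and 9.97 CPM to 24.7 and 24.5 and then 28.3 and 28.8. The called part of this rise was in the first day: the log2 change was 1.32 ± 0.12 from GM to DM 24h (adjusted p = 1.63e-06) and 0.21 ± 0.11 from DM 24h to DM 48h (adjusted p = 0.121). Per1 (chr11:69095108-69109965), the Period gene that serum and hormones induce at once in many cells, read 28.0 and 42.2 CPM in GM, 29.3 and 35.5 in DM 24h and 41.3 and 37.3 in DM 48h. The GM values overlapped with those of both DM stages, the DM 48h values lay above those of DM 24h, and none of its 3 stage differences passed the test (-0.12, 0.16 and 0.28 on the log2 scale, each with an SE of 0.18).

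The cryptochromes, partners of the PER proteins in repression, both rose, by different amounts. Cry2 (chr2:92403646-92434085) went from 10.3 and 8.64 CPM in GM to 16.3 and 18.2 and then 24.3 and 25.2, with no overlap between stages. It was 1.83-fold higher in DM 24h (log2 0.87 ± 0.15, adjusted p = 0.00035) and 2.62-fold higher in DM 48h than in GM (1.39 ± 0.15, adjusted p = 3.07e-06). Cry1 (chr10:85131700-85185054) went from 19.3 and 20.7 CPM to 24.9 and 23.8 and then 31.0 and 32.3. Its change from GM was 0.28 ± 0.12 in DM 24h (adjusted p = 0.0561) and 0.66 ± 0.12 in DM 48h (adjusted p = 0.000245).

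The REV-ERB genes parted. Nr1d1 (chr11:98767932-98775377) read 89.0 and 54.1 CPM in the GM DMSO libraries, the widest pair of all 10 genes, then 40.8 and 37.8 in DM 24h and 67.6 and 62.9 in DM 48h. It was 1.82-fold lower in DM 24h than in GM (log2 -0.86 ± 0.19, adjusted p = 0.00207) and 1.66-fold higher in DM 48h than in DM 24h (0.73 ± 0.19, adjusted p = 0.00817). The fall came to -0.46 without library A of GM DMSO and to -1.18 without library B, and it passed the test both times. Nr1d2 (chr14:18204056-18239106) stayed within 58.5 to 71.1 CPM in the 6 DMSO libraries, and none of its stage differences passed (-0.16, -0.04 and 0.13, SE 0.12 each). Nr1d1 shares 263 exon bases (8.55%) with Thra, which lies on the opposite strand, and whether reads were counted by strand is not given in the sources used here. Thra rose by 1.30 and 2.15 on the log2 scale from GM to DM 24h and DM 48h, unlike Nr1d1. From DM 24h to DM 48h Thra rose by 0.85 ± 0.09 (adjusted p = 9.45e-06), as Nr1d1 did. The part of the shared bases in the Nr1d1 values was not tested.

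Dbp (chr7:45705100-45710203), the output gene, showed the steepest course of the 10 with Per3. Its libraries read 5.10 and 6.27 CPM in GM, 13.8 and 15.6 in DM 24h and 22.2 and 26.6 in DM 48h, with no overlap between stages. It was 2.58-fold higher in DM 24h than in GM (log2 1.37 ± 0.17, adjusted p = 2.19e-05), 4.28-fold higher in DM 48h (2.10 ± 0.16, adjusted p = 1.56e-07) and 1.66-fold higher in DM 48h than in DM 24h (0.73 ± 0.14, adjusted p = 0.0012). Dbp shares 539 exon bases (18.0%) with Sphk2 on the opposite strand. Sphk2 read 36.4 to 45.5 CPM in the 6 DMSO libraries and passed none of the 3 stage tests (adjusted p = 0.356, 0.303 and 0.0807). Of the calls from DM 24h to DM 48h, those of Dbp and Per3 held without any 1 of the 4 libraries. Cry1 lost its call without DM 24h DMSO A or B or DM 48h DMSO B, Cry2 without DM 24h DMSO A, and Nr1d1 without DM 48h DMSO A or DM 24h DMSO B.

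The second question was what PFI-3 did to the clock genes at each stage. At both DM stages Arntl was lower with PFI-3, 1.71-fold in DM 24h and 2.15-fold in DM 48h. Dbp was 1.64-fold higher and Clock 1.20-fold lower in DM 24h, and in GM Per2 was 1.67-fold lower. In all, 1 of the 10 genes was called in GM, 3 in DM 24h and 1 in DM 48h, against 11.6%, 23.6% and 27.4% of all genes tested. These shares of the clock genes, 10%, 30% and 10%, are near or below the background and are not a result about the clock genes as a list. Their median log2 change was 0.02, 0.23 and -0.02, and that of all genes -0.01, 0.00 and 0.00. Beside these values, the muscle lineage markers together were lower with PFI-3 at every stage, at 429 to 565 CPM against 619 to 682 in GM, 1500 to 1510 against 2420 to 2440 in DM 24h, and 7040 to 7490 against 10400 in both libraries in DM 48h. The summed neuronal list, nearly all of it Stmn2, was lower too, at 49.7 to 65.4 CPM against 94.2 to 103, 16.9 to 19.2 against 47.5 to 50.4, and 10.3 to 11.1 against 37.7 to 39.1. The macrophage list, mostly Cd68, stood at 5.16 to 9.55 CPM against 2.81 to 5.57, 2.59 to 3.13 against 1.03 to 2.01, and 2.19 to 2.26 against 1.64 to 2.20. The part of these in the clock gene results was not tested.

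**Figure D3:**
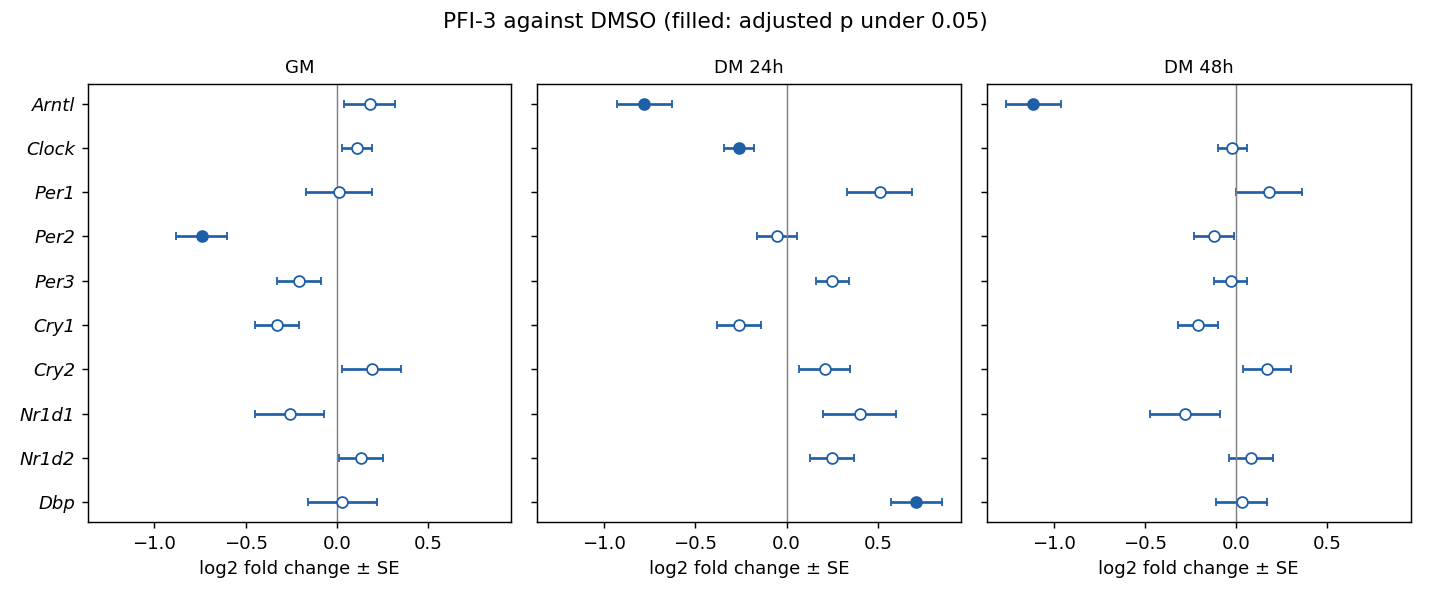
Log2 fold change of PFI-3 against DMSO with its standard error (x axis, shared scale) for each clock gene in GM, in DM 24h and in DM 48h; filled dots have an edgeR adjusted p under 0.05. Arntl moves from 0.18 in GM to -0.78 and -1.11, and Dbp is at 0.71 in DM 24h and at 0.03 in GM and in DM 48h.

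Arntl was the one clock gene called at both DM stages. With PFI-3 its libraries read 16.2 and 22.4 CPM in GM, 11.4 and 11.1 in DM 24h and 9.24 and 9.21 in DM 48h. In GM these values overlapped with DMSO, and at both DM stages they lay below every DMSO library. The log2 change was 0.18 ± 0.14 in GM (adjusted p = 0.414), -0.78 ± 0.15 in DM 24h (adjusted p = 0.00271) and -1.11 ± 0.15 in DM 48h (adjusted p = 0.000202). Both DM calls held in all 13 alternative analyses, with adjusted p up to 0.0336 in DM 24h and 0.00437 in DM 48h. The change in DM 48h differed from that in GM by -1.29 ± 0.20 (adjusted p = 0.00147), and the change in DM 24h by -0.96 ± 0.20 (adjusted p = 0.0268). The 2 DM stages differed by -0.33 ± 0.21, which did not pass (adjusted p = 0.357). The difference between DM 24h and GM was lost without any 1 of the 4 DM 24h libraries (adjusted p between 0.0786 and 0.129) and in a fit of only the 8 libraries compared (0.109).

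Clock read 106 and 105 CPM with PFI-3 in DM 24h against 134 and 119 in DMSO, with no overlap, a log2 change of -0.26 ± 0.08 (adjusted p = 0.0399). In DM 48h the values, 113 and 119 against 114 and 121, overlapped (-0.02 ± 0.08, adjusted p = 0.916), and in GM they were 149 and 147 against 127 and 147 (0.11 ± 0.08, adjusted p = 0.407). The DM 24h call was lost in both limma fits (adjusted p = 0.177 and 0.18) and without DM 24h DMSO A (-0.17, 0.294), DM 24h PFI-3 A (0.145) or DM 24h PFI-3 B (0.169).

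Dbp in DM 24h read 23.8 and 24.3 CPM with PFI-3, above both DMSO libraries at 13.8 and 15.6. The log2 change was 0.71 ± 0.14 (adjusted p = 0.00409). This PFI-3 level lay within the range of DMSO cells a day later, 22.2 to 26.6 CPM. In DM 48h the PFI-3 libraries read 25.4 and 24.6, inside the DMSO range (0.03 ± 0.14, adjusted p = 0.884), and in GM 6.69 and 4.92, overlapping with DMSO (0.03 ± 0.19, adjusted p = 0.956). The change in DM 48h differed from that in DM 24h by -0.67 ± 0.20 (adjusted p = 0.0451). That difference ran from -0.81 to -0.55 in fits that left out 1 of its 8 libraries and did not pass in any of them. It also did not pass under RLE scaling (adjusted p = 0.0509), DESeq2 (0.109) or limma with pseudocounts 1 and 0.1 (0.0784 and 0.117). The DM 24h change itself held in 12 of 13 alternatives and was at 0.0542 without DM 24h DMSO A. Sphk2, which shares exon bases with Dbp, changed by 0.26 ± 0.10 in DM 24h (adjusted p = 0.0681).

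Per2 was the clock gene that PFI-3 lowered in proliferating cells. The libraries read 5.09 and 6.70 CPM with PFI-3 and 9.80 and 9.97 with DMSO, with no overlap, a log2 change of -0.74 ± 0.14 (adjusted p = 0.00618). In DM 24h (24.9 and 22.7 against 24.7 and 24.5) and DM 48h (26.7 and 25.8 against 28.3 and 28.8) the log2 changes were -0.05 ± 0.11 and -0.12 ± 0.11 (adjusted p = 0.771 and 0.436). The DM 48h change differed from the GM one by 0.62 ± 0.17 (adjusted p = 0.0336), and that of DM 24h by 0.69 ± 0.18 (adjusted p = 0.0529). A fit of the 4 GM libraries alone, with no term for the replicate letter, kept the size of the GM fall (-0.73) but not the call (adjusted p = 0.308); it called 38 genes, 0.303% of those tested, and 0 clock genes, with Per2 the 1 gene of the 10 at an unadjusted p under 0.05. The DM 48h difference was lost in 9 of 17 alternatives, among them the fits without GM PFI-3 A or any 1 of the 4 DM 48h libraries.

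The other Period and Cryptochrome genes and the REV-ERB genes passed no test of PFI-3 in the fit of 12 libraries. That fit had the low-count filter and no term for the replicate letter. Per1 was nearest, in DM 24h, with 47.4 and 44.8 CPM against 29.3 and 35.5 and no overlap. Its log2 change of 0.51 ± 0.18 (adjusted p = 0.0576) passed without the filter (adjusted p = 0.04) and with a term for the replicate letter (0.0424). Per3 read 33.6 and 31.0 there against 25.9 and 28.2 (0.25 ± 0.09, adjusted p = 0.0651), and in DM 48h 35.1 and 36.5 against 37.3 and 35.6 (-0.03 ± 0.09). Nr1d1 read 53.8 and 50.1 against 40.8 and 37.8 in DM 24h (0.40 ± 0.20, adjusted p = 0.159) and 57.3 and 50.3 against 67.6 and 62.9 in DM 48h (-0.28 ± 0.19, adjusted p = 0.309), without overlap at either stage. Thra, its overlapping neighbour, changed by 0.47 ± 0.09 in DM 24h (adjusted p = 0.00308) and by -0.24 ± 0.09 in DM 48h (adjusted p = 0.0636). Both estimates had the sign of those of Nr1d1. Nr1d2 read 70.1 and 71.3 against 58.5 and 60.7 in DM 24h (0.25 ± 0.12, adjusted p = 0.164) and 69.7 and 67.3 against 65.4 and 64.6 in DM 48h (0.08 ± 0.12, adjusted p = 0.691). In GM the PFI-3 libraries read 30.3 and 40.7 CPM for Per1, 7.20 and 7.27 for Per3, 68.0 and 51.6 for Nr1d1 and 84.8 and 61.7 for Nr1d2, and of these 4 genes Per3 did not overlap with DMSO (-0.21 ± 0.12, adjusted p = 0.305). Cry1 was the one of these whose estimate was below 0 at all 3 stages, -0.33 ± 0.12, -0.26 ± 0.12 and -0.21 ± 0.11, while Cry2 (0.19 ± 0.16, 0.21 ± 0.14 and 0.17 ± 0.13), Per1 and Nr1d2 were above 0 at all 3, none of them called. The Cry1 libraries with PFI-3 read 13.7 and 18.1, 21.2 and 19.5, and 27.3 and 27.3 CPM in GM, in DM 24h and in DM 48h, below both DMSO libraries each time, and those of Cry2 read 11.2 and 10.4, 20.2 and 19.8, and 31.7 and 24.0. Without DM 48h PFI-3 A, which read 31.7 CPM against 24.0 in its replicate, the Cry2 estimate in DM 48h was -0.05.

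How many clock genes were called in DM 24h depends on which libraries enter the fit, and the cause was not tested. The fit of 12 libraries averages over the wide GM pairs and the narrow DM pairs. A fit of the 4 DM 24h libraries alone called 8 of the 10 clock genes, Dbp, Per1, Nr1d1, Per3 and Nr1d2 higher and Arntl, Clock and Cry1 lower, but it also called 44.7% of all genes. In DM 48h the same kind of fit called 3 clock genes, Arntl, Cry1 and Nr1d1, all lower, with 45% of all genes. The differences of the PFI-3 change between stages were called for 1, 2 and 1 of the 10 genes (DM 24h minus GM, DM 48h minus GM, DM 48h minus DM 24h), against 3.37%, 14.5% and 12.1% of all genes, and the genes are the ones named above.

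The wider clock pathway was read from 31 further genes, of which 29 passed the filter. Npas2, a relative of Clock, and Fbxl21, a ligase that targets CRY proteins, did not pass and had at most 6 counts per pair of libraries. PFI-3 raised 1 and lowered 5 of the 29 in GM (5.46% and 6.15% of all genes), raised 4 and lowered 2 in DM 24h (12.2% and 11.4%), and raised 4 and lowered 4 in DM 48h (13.4% and 14%). In DMSO, 22 of the 29 (75.9%) changed from GM to DM 24h, 10 up and 12 down, where 60.6% of all genes changed, and 22 from GM to DM 48h, 12 up and 10 down, where 73.1% of all genes did. The median log2 changes of the 29 with PFI-3 were -0.02, -0.08 and -0.04.

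**Figure D4:**
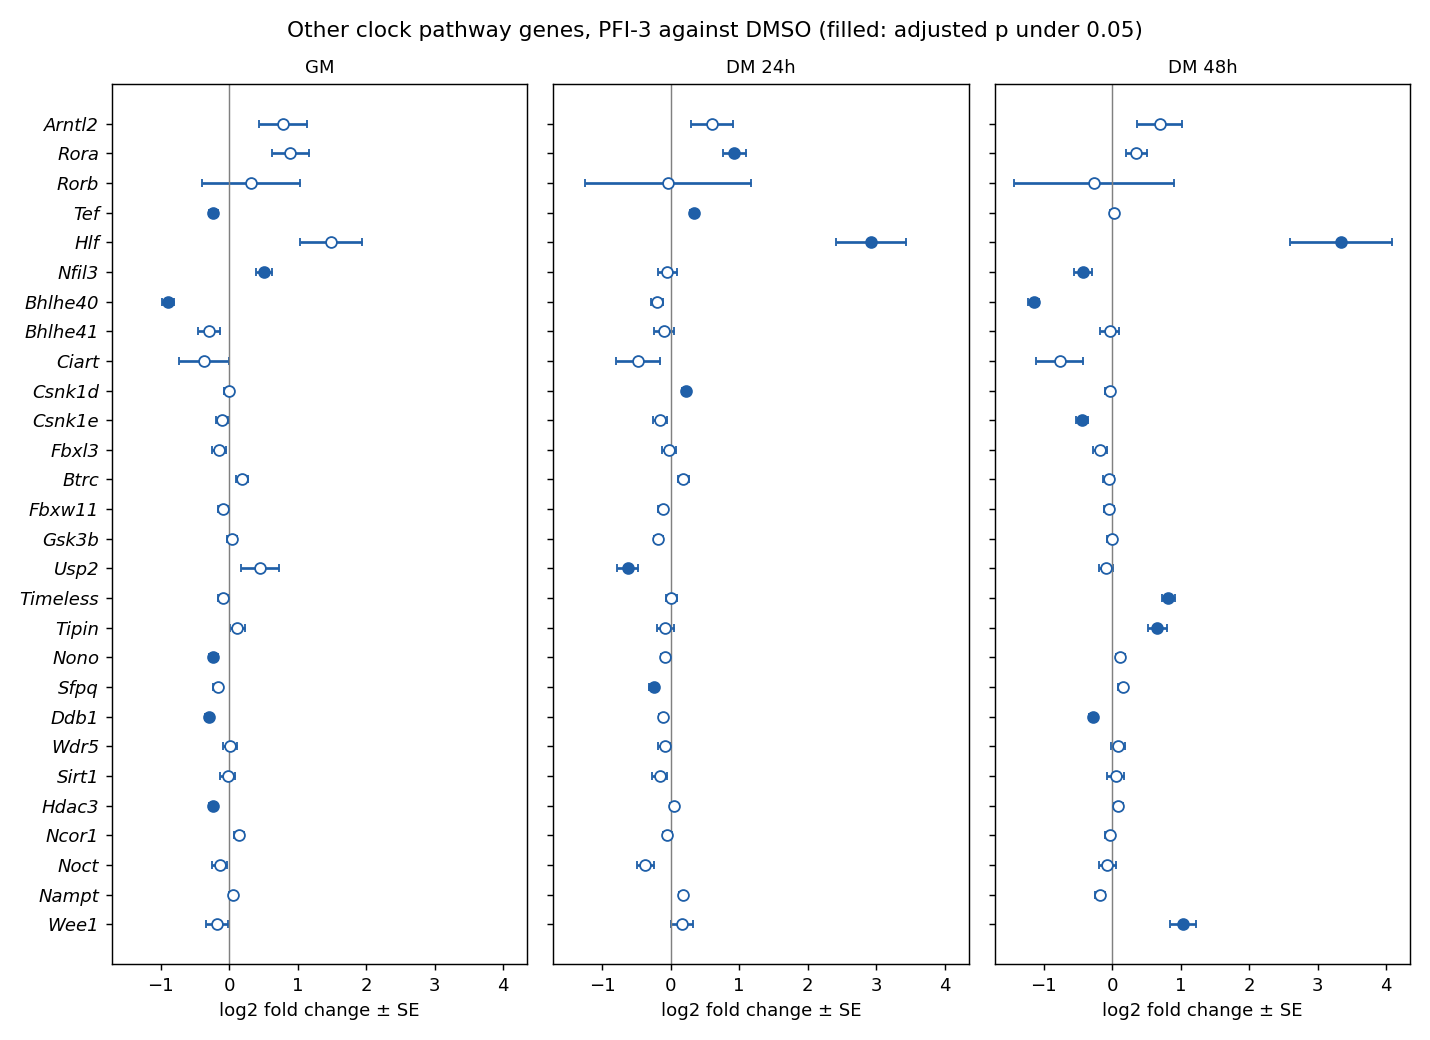
Log2 fold change of PFI-3 against DMSO with its standard error (x axis, shared scale) for other clock pathway genes that passed the filter, in GM, in DM 24h and in DM 48h; filled dots have an edgeR adjusted p under 0.05. Hlf lies farthest to the right at both DM stages, at 2.93 and 3.34, and Bhlhe40 farthest to the left in DM 48h, at -1.15.

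Dbp has 2 close relatives that bind the same D-box, Tef and Hlf. In DM 24h both rose with PFI-3, as Dbp did. Tef read 200 and 192 CPM against 156 and 155 (log2 0.34 ± 0.06, adjusted p = 0.00233), and in DM 48h 238 and 229 against 230 and 231 (0.02 ± 0.06, adjusted p = 0.852). In GM Tef was lower with PFI-3, 77.3 and 72.0 CPM against 88.6 and 86.1 (-0.23 ± 0.06, adjusted p = 0.0412). This GM call was not followed under the alternative analyses. Hlf was scarce: 43 and 37 counts with PFI-3 against 4 and 6 in DMSO in DM 24h, and 13 and 21 against 2 and 1 in DM 48h. In GM it had 18 and 45 counts with PFI-3 against 10 and 11, without passing (1.49 ± 0.45, adjusted p = 0.0535). The ratio of summed counts, scaled by library size, was 7.78 in DM 24h (exact 95% interval 4.02 to 16.8) and 10.9 in DM 48h (3.42 to 55.3), where the interval covers counting error only. The fitted changes of 2.93 ± 0.51 and 3.34 ± 0.74 (adjusted p = 0.00167 and 0.00547) depend on the prior count at such levels, and the DM 48h call was lost without DM 48h DMSO B (0.0568). In DMSO Hlf fell from 10 and 11 counts in GM to 2 and 1 in DM 48h (fitted log2 change -2.61 ± 0.82, adjusted p = 0.0118), a call also lost without DM 48h DMSO B (0.0733). Nfil3, which competes with these factors for the D-box and represses, was higher with PFI-3 in GM (29.3 and 39.1 CPM against 23.5 and 24.7, 0.51 ± 0.12, adjusted p = 0.0238) and lower in DM 48h (24.0 and 25.3 against 31.6 and 34.8, -0.43 ± 0.13, adjusted p = 0.024). The GM call of Nfil3 was lost without GM DMSO A (0.0657) or GM PFI-3 B (0.116), and the DM 48h call without any 1 of its 4 libraries (0.0531 to 0.155).

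The ROR receptors drive Arntl through the element that REV-ERB proteins occupy. Rora rose through differentiation, from 0.862 and 1.40 CPM in GM DMSO to 5.87 and 4.88 in DM 24h and 11.7 and 10.6 in DM 48h (log2 from GM 2.23 ± 0.24 and 3.28 ± 0.22, adjusted p = 7.12e-06 and 3.97e-08). With PFI-3 it was higher in DM 24h, at 10.2 CPM in both libraries (0.93 ± 0.17, adjusted p = 0.00237), and in DM 48h it read 13.7 and 14.8 (0.35 ± 0.15, adjusted p = 0.114). In GM Rora read 2.26 and 1.99 CPM with PFI-3, above both DMSO libraries, without passing (0.89 ± 0.27, adjusted p = 0.0557). The changes in DM 24h and in GM differed by 0.03 ± 0.38 (adjusted p = 0.989). Arntl2, the paralog of Arntl, had 12 to 39 counts per library and read higher with PFI-3 in each pair of group means (0.78 ± 0.35, 0.60 ± 0.31 and 0.69 ± 0.33, adjusted p = 0.172, 0.194 and 0.149), none of it called.

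Bhlhe40 encodes DEC1, a further repressor that competes for E-boxes. In DMSO it read 53.7 and 65.8 CPM in GM, 96.1 and 99.1 in DM 24h and 177 in both libraries in DM 48h. With PFI-3 it was lower in GM, 31.5 and 32.8 CPM (log2 -0.89 ± 0.09, adjusted p = 0.000156), and lower in DM 48h, 81.3 and 77.4 CPM (-1.15 ± 0.08, adjusted p = 2.24e-06). In DM 24h the values of 86.4 and 83.7 were below DMSO without passing (-0.20 ± 0.09, adjusted p = 0.111). The DM 48h call held in 13 of 13 alternatives. A fit of the 4 GM libraries alone, with no term for the replicate letter, kept none of 4 pathway genes called in GM. Bhlhe40 was at an adjusted p of 0.0956 there, Nfil3 at 0.33, Ddb1 (a subunit of ubiquitin ligases) at 0.365 and Hdac3 (the deacetylase that REV-ERB proteins recruit) at 0.414. Tef, also called in GM, is not among these 4. In the fit of 12 libraries Ddb1 changed by -0.30 ± 0.06 and Hdac3 by -0.24 ± 0.06 in GM (adjusted p = 0.00918 and 0.0202). That fit also called Ddb1 lower with PFI-3 in DM 48h (-0.28 ± 0.06, adjusted p = 0.00403). The Ddb1 changes in DM 48h and GM differed by 0.02 ± 0.08 (adjusted p = 0.938).

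Among genes that set the life of PER and CRY proteins, Usp2, a deubiquitinase, rose with differentiation. It read 1.10 and 0.960 CPM in GM DMSO, 7.85 and 9.36 in DM 24h and 49.2 and 44.7 in DM 48h (log2 from GM 3.06 ± 0.20 and 5.50 ± 0.17, adjusted p = 9.97e-08 and 3.65e-11). With PFI-3 it was lower in DM 24h, at 5.10 and 6.03 CPM (-0.63 ± 0.15, adjusted p = 0.00887), and in DM 48h it read 43.9 and 44.5 (-0.09 ± 0.10, adjusted p = 0.567). The DM 24h call was lost without DM 24h PFI-3 A or DM 24h DMSO B (0.0914 and 0.0957). Csnk1e, the kinase casein kinase 1 epsilon that marks PER for turnover, was lower with PFI-3 in DM 48h (146 and 141 CPM against 195 in both, -0.44 ± 0.09, adjusted p = 0.00421). Sfpq, an RNA-binding partner of PER complexes, was lower by 0.25 ± 0.07 in DM 24h (adjusted p = 0.0253), a call lost without any 1 of its 4 libraries (0.0971 to 0.15).

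Wee1, Timeless and Tipin are listed with the clock but act in the cell cycle and in replication, and they fell from GM to DM in DMSO. From GM to DM 48h Wee1, a mitotic brake kinase, changed by -1.96 ± 0.18 and Timeless by -1.86 ± 0.09 (adjusted p = 7.73e-07 and 1.67e-09), and from DM 24h to DM 48h Tipin, the partner of Timeless, changed by -1.32 ± 0.13 (adjusted p = 5.68e-06). With PFI-3 they were higher than with DMSO in DM 48h: Wee1 at 30.5 and 32.2 CPM against 15.9 and 14.8 (1.03 ± 0.19, adjusted p = 0.00152) and Timeless at 26.3 and 25.2 against 14.4 and 14.9 (0.82 ± 0.09, adjusted p = 4.7e-05). Noct, a clock output that removes a phosphate from coenzymes, and Wdr5, a histone methylation cofactor, fell from GM to DM 24h in DMSO (-0.94 ± 0.12 and -0.67 ± 0.10, adjusted p = 2.18e-05 and 9.67e-05).

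The genes whose profile over the 12 libraries was most like that of Arntl were found by the root-mean-square difference of log2 CPM after each profile was centred on its own mean, over the 11827 genes that averaged 1 CPM or more. They were Mid1ip1 (0.229), Arnt2 (0.236), Ahr (0.241), Exoc3l4 (0.242) and Ttc7 (0.243), against a median of 0.536 over all genes. Arnt2 and Ahr encode proteins of the bHLH-PAS family, to which ARNTL and CLOCK belong. Arnt2 changed with PFI-3 by -0.25 ± 0.10 in GM, -0.83 ± 0.10 in DM 24h and -1.11 ± 0.12 in DM 48h. Ahr changed by 0.35 ± 0.13, -0.79 ± 0.13 and -1.01 ± 0.13. In DM 24h and DM 48h Mid1ip1 changed by -0.59 and -0.74, Exoc3l4 by -0.77 and -0.66, and Ttc7 by -0.27 and -0.59. These genes were chosen by their likeness to Arntl in the same libraries, so falls with PFI-3 in DM follow from the choice. Clock ranked 259th by this measure (0.356), the nearest of the other clock genes to Arntl. Per3 and Dbp were the farthest (1.199 and 1.184). Profiles were centred but not scaled, so a gene that changes little can rank near Arntl and a steep one far. With PFI-3 in DM 48h Clock changed by -0.02 ± 0.08 and Arntl by -1.11 ± 0.15. The rank of Clock therefore does not show that it moved with Arntl.

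For Dbp the same measure gave Car11 (0.159), Ctns (0.164), Mettl27 (0.175), Dnajc28 (0.179) and Mxra8 (0.184), against a median of 0.946. Per3 ranked 9th (0.206), Per2 207th (0.369) and Cry2 321st (0.410), while Arntl ranked 9234th (1.184). Car11 is the neighbour of Dbp on chromosome 7, at chr7:45699171-45704687, with 412 bases between the genes. It was scarce, at 0.356 to 4.17 CPM, and rose by 2.28 ± 0.44 and 3.16 ± 0.41 on the log2 scale from GM to DM 24h and DM 48h in DMSO. A rise like that of Dbp follows from the choice by likeness. Its change with PFI-3 in DM 24h, 0.48 ± 0.32, did not pass (adjusted p = 0.299). The ranks describe these 12 libraries, which share stage and treatment, and no test was made of them.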

How the data were processed

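Per the labels, 12 C2C12 libraries (2 per group, 6 groups) were prepared, sequenced and analysed downstream by a sequencing company. The authors deposited for each library a gene table of expected counts and FPKM. The submitters' processing notes name HISAT, StringTie, Cufflinks, Bowtie, RSEM and DESeq2 and the build mm10; their roles, versions and the strand setting of the counting are not given in the sources used here. A gene with no row in a library was taken as 0; in 6963 cases it was listed in 1 library of a group and not in the other, and 97% of those had a count of at most 5 where listed.

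Expected counts were rounded (93.3 to 93.7% were already whole), scaled by TMM and filtered (filterByExpr), leaving 12545 of 16288 genes. edgeR 4.0.16 (R 4.3.3) fitted its quasi-likelihood model to all 12 libraries with 6 groups, and p-values were adjusted by Benjamini-Hochberg over all genes tested; a call is an adjusted p under 0.05. In simulated data for PFI-3 in DM 24h, with 12545 genes and 200 changed 2-fold, 93% of the changed genes were recovered and 6.1% of the calls were false. The changed genes were drawn above a minimum mean count, and each gene had the same spread in all groups, unlike the real libraries. These rates therefore need not hold for the calls given here. Alternatives were DESeq2 1.42.0, limma 3.58.1 on log2(FPKM + 1) and log2(FPKM + 0.1), RLE scaling, no filter, and a filter of a mean of at least 10 counts. Further ones were fits of only the libraries compared, a replicate block, and each library left out. The limma fits used the deposited FPKM without TMM scaling. At pseudocount 1 their median log2 change with PFI-3 over all genes was 0.063, 0.036 and 0.071 (GM, DM 24h, DM 48h). A call lost under limma can therefore reflect scale as well as test. Counting intervals and floors cover counting error only.

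The clock genes and pathway lists were chosen with earlier results of these data known. All 10 clock genes are named, and of the other pathway genes up to 3 called rises and 3 called falls per comparison with a mean of at least 1 CPM. Tef in GM, Arntl2 and the other uncalled values were added after their values were seen. Sequences and gene positions come from RefSeq tables on GRCm38.p6. The values of 1 further pathway gene are not reported here, though it is included in the pathway counts and medians.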

Additional observations from a re-analysis of the deposited data

Results flagged for a closer look

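For 3 clock genes the change with PFI-3 differed between stages by an interaction test in edgeR over all genes. The change in Arntl was lower by 0.96 on the log2 scale (-0.96 ± 0.20, adjusted p = 0.0268) in DM 24h than in GM, and lower in DM 48h than in GM (-1.29 ± 0.20, adjusted p = 0.00147). The change in Per2 was higher in DM 48h than in GM (0.62 ± 0.17, adjusted p = 0.0336), where GM held the fall. The change in Dbp was lower in DM 48h than in DM 24h (-0.67 ± 0.20, adjusted p = 0.0451), where DM 24h held the rise. The Dbp difference did not pass under RLE scaling, DESeq2 or either limma fit. That of Per2 did not pass under DESeq2 (adjusted p = 0.107), either limma fit (0.0935 and 0.0739) or edgeR on only the libraries compared (0.109). In that last kind of fit the DM 24h difference of Arntl did not pass either (0.109). Losses with 1 library left out are given above.

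Among the 29 other pathway genes the same test called 2 (6.9%), 5 (17.2%) and 7 (24.1%) differences (DM 24h minus GM, DM 48h minus GM, DM 48h minus DM 24h), against 3.37%, 14.5% and 12.1% of all genes. They include Nono (DM 48h minus GM, 0.35, adjusted p = 0.0239) and Nampt (DM 48h minus DM 24h, -0.36, adjusted p = 0.0241), named after their values were seen. Between DM 24h and GM the others were Bhlhe40 (0.69, adjusted p = 0.0135) and Tef (0.56, adjusted p = 0.00641). The Bhlhe40 difference was lost without any 1 of the 4 DM 24h libraries, and that of Tef without DM 24h PFI-3 A. Between DM 48h and GM they were Nfil3 (-0.94, adjusted p = 0.0042), Hdac3 (0.33, adjusted p = 0.0188), Timeless (0.91, adjusted p = 0.000401) and Wee1 (1.21, adjusted p = 0.00624). The Hdac3 difference was lost without any 1 of the 4 DM 48h libraries. Between DM 48h and DM 24h they were Bhlhe40 (-0.95, adjusted p = 0.000309), Tef (-0.32, adjusted p = 0.0335), Timeless (0.81, adjusted p = 0.00114), Wee1 (0.87, adjusted p = 0.0416), Tipin (0.73, adjusted p = 0.0219) and Sfpq (0.40, adjusted p = 0.025). Of these 6, Tef, Wee1 and Sfpq lost their call without any 1 of the 8 libraries compared, and Tipin without DM 24h DMSO A or B, DM 24h PFI-3 A, DM 48h DMSO A or DM 48h PFI-3 B. With groups of 2 no library could be tested for standing apart from its group.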

How the results depend on the processing

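Among the clock genes' results, 745 values under alternatives kept direction and side of the threshold, 48 lost a call, 29 gained one and 26 changed sign. The 26 concern changes that were not called. Leaving out 1 library each gave these ranges for PFI-3 in GM: Arntl -0.07 to 0.40, Per1 -0.25 to 0.34, Nr1d1 -0.57 to 0.15, Nr1d2 -0.11 to 0.35 and Dbp -0.21 to 0.23. For PFI-3 in DM 24h the range was -0.12 to 0.01 for Per2. For PFI-3 in DM 48h they were -0.06 to 0.02 for Clock, -0.06 to 0.01 for Per3, -0.05 to 0.36 for Cry2 and -0.09 to 0.17 for Dbp. From GM to DM 24h Per1 ran from -0.38 to 0.21. From GM to DM 48h they were -0.10 to 0.49 for Per1, -0.45 to 0.27 for Nr1d1 and -0.13 to 0.06 for Nr1d2, and from DM 24h to DM 48h -0.02 to 0.11 for Arntl. With limma the PFI-3 change in DM 48h was 0.07 for Clock (both pseudocounts) and 0.05 and 0.06 for Per3 (pseudocounts 1 and 0.1), and the change of Arntl from DM 24h to DM 48h was -0.02 (both pseudocounts).

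Counts of clock genes called moved as follows, and the causes were not tested. With only the libraries compared, PFI-3 gave 0, 8 and 3 calls (GM, DM 24h, DM 48h) against 1, 3 and 1, and 38, 5603 and 5644 genes in all against 1456, 2966 and 3438. The stage differences of the PFI-3 change gave 0 (DM 24h minus GM, with 5 clock genes at an unadjusted p under 0.05), 1 (DM 48h minus GM) and 4 (DM 48h minus DM 24h) against 1, 2 and 1, and 92, 1033 and 4170 genes in all. DM 48h minus GM gave 1 under DESeq2 and both limma fits. DM 48h minus DM 24h gave 0 under edgeR with RLE scaling (3 at an unadjusted p under 0.05), DESeq2 (2) and both limma fits (2 each). Leaving out 1 library gave 1 to 3 calls for PFI-3 in GM (3 without GM PFI-3 B, 2 without GM DMSO B), 1 to 3 in DM 24h (1 without DM 24h DMSO A), 1 to 1 in DM 48h, 5 to 6, 5 to 7 and 3 to 4 for DM 24h against GM, DM 48h against GM and DM 48h against DM 24h (3 without DM 24h DMSO A or B), and 0 to 3, 1 to 2 and 0 to 0 for the stage differences, where each 0 in edgeR stood beside 1 to 6 clock genes at an unadjusted p under 0.05. Share of higher genes among PFI-3 calls moved from 47.0%, 51.7% and 48.9% to 75.3%, 62.0% and 65.3% with limma at pseudocount 1.

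Replicate letters are shared between groups without a stated pairing. Same-letter deviations correlated at 0.504 in GM, 0.029 in DM 24h and 0.047 in DM 48h. In GM, libraries of the same letter thus deviated together, and the cause was not tested. The letters were not taken as pairs in the main fit. With a replicate block the counts were 1, 4, 1, 5, 6, 5, 1, 2 and 2 for the 3 PFI-3, 3 stage and 3 difference comparisons, and with the block and only the libraries compared 1, 8, 4, 5, 5, 7, 2, 2 and 4. For PFI-3 in GM, the 4 libraries with the block gave 922 genes in all against 38 without it, and calls for Per2 (adjusted p = 0.043), Bhlhe40 (0.000878) and Nfil3 (0.0295) but not Ddb1 (0.151) or Hdac3 (0.162). With the block over 12 libraries Per1 was called for PFI-3 in DM 24h (0.0424). Dbp, Per2 and Per3 had 65 to 135 counts per library in GM, which limits their precision there, and Hlf, at 1 to 45 counts, bears no finer reading than its interval.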
